A study of Mus musculus with 6 samples.

Results

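Iron-sulfur clusters are small cofactors of iron and sulfide that mitochondria build and place into enzymes of the respiratory chain, the citric acid cycle and lipoic acid synthesis. Sulfur is drawn from cysteine, joined with iron on a scaffold protein using electrons from a ferredoxin, and handed by chaperones and carrier proteins to the enzymes that need it. Skeletal muscle depends on these enzymes for oxidative energy supply. The genes described here are Nfs1, Iscu, Fdx1, Hscb, Glrx5, Isca1, Isca2 and Nfu1, which cover this route from sulfur release to delivery. They were chosen by name, as the probe sets whose gene symbol is one of these 8, and are 8 of 18193 genes on the array and 8 of the 11537 genes that passed the filter on signal.

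Transcript levels in the gastrocnemius, a calf muscle, were measured on 6 arrays. The mice were C57BL/6J males that ate 1 of 3 diets for 15 weeks from 6 weeks of age. The HF+SFC+ALA diet was high in fat (60 kcal% fat) and carried 2 additions. One was an iron compound, sodium ferrous citrate (SFC, 0.023% w/w), and the other a heme precursor, 5-aminolevulinic acid in its phosphate form (ALA, 0.2% w/w). The HF diet was the same high-fat food without the supplement, and the Control diet held 10 kcal% fat. Muscle was taken after 24 h or 4 h of fasting, so that the 6 pools were HF+SFC+ALA, HF and Control at each time. The sample labels state an age of 21 months, while the feeding scheme gives an age in weeks; no result here uses the age. Each array held RNA pooled within its group, how many animals a pool held is not given, and no group had replicates. In bulk muscle, fewer cells of a type and less RNA per cell cannot be told apart.

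Values are MAS5 signals on a linear scale, and differences are in log2 units. The test was an additive limma fit of diet and fasting time across all 11537 genes, which leaves 2 residual degrees of freedom. Each comparison's p-values were adjusted over all of these genes, with a threshold of 0.05. Its p-values measure the spread left between these pools, which may be biological or technical. Each combination of diet and fasting time had a single pool, so this is not a spread between replicates. If fasting acted unequally under the diets, that is counted in this spread and cannot be told apart from noise. Standard errors and intervals rest on the same spread. Precision is limited by how few arrays there were.

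All 8 genes were well above the filter, and no value of the probe sets that represent them lay at the floor set on low signals. Over the 6 pools the highest signal of a gene was 1.14 to 1.35 times its lowest, with a median of 1.21 over the 8 genes, beside a median of 1.42 over all genes tested and 1.30 over the 5521 genes of like signal. No pair of pools compared here was 1.5-fold apart for any of the 8 genes. For so few genes, none in any 1 pair is near the shares over all genes given next. Those shares were not computed for genes of like signal alone. At 4 h 7.33% of all genes were that far apart between HF+SFC+ALA and HF, 8.49% between HF+SFC+ALA and Control and 9.66% between HF and Control, and at 24 h 7.95%, 9.92% and 13.2%. Between the fasting times it was 8.51% with HF+SFC+ALA, 10.2% with HF and 12.2% with Control.

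**Figure D1:**
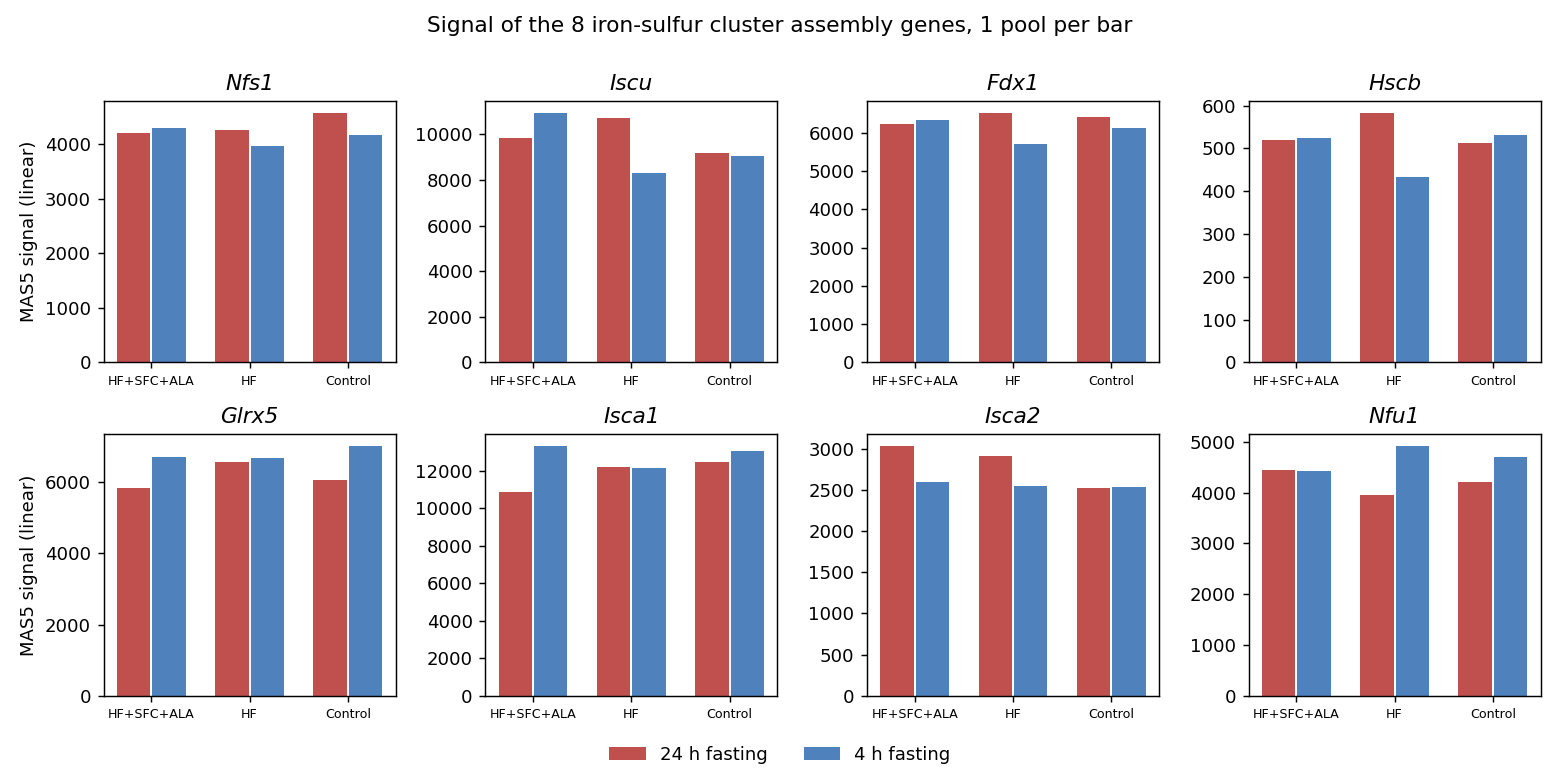
Linear MAS5 signal (vertical axes, from 0) of each of the 8 genes in the HF+SFC+ALA, HF and Control pools after 24 h (red) and 4 h (blue) of fasting; each bar is 1 pool, so there are no error bars. Hscb spans 433 to 583 and Fdx1 5699 to 6519, the widest and narrowest relative ranges of the 8.

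The first members act at the scaffold, where a cluster is first put together. Nfs1 encodes the cysteine desulfurase that releases the sulfur. Its signal at 24 h was 4210 in the HF+SFC+ALA pool, 4267 in the HF pool and 4577 in the Control pool, and at 4 h it was 4309, 3979 and 4173 in the same order of diets. The HF pool at 4 h was lowest and the Control pool at 24 h highest, 1.15-fold apart, and the fasting times overlapped.

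Iscu encodes the scaffold on which clusters are assembled. At 24 h its signal was 9848 with HF+SFC+ALA, 10702 with HF and 9185 with Control. At 4 h it was 10937 with HF+SFC+ALA, 8300 with HF and 9057 with Control. Both HF+SFC+ALA pools lay above both Control pools, whereas the HF pools held the lowest signal and the second highest signal of the 6.

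Fdx1 encodes a mitochondrial ferredoxin, an electron carrier that is best known from steroid hormone synthesis and that can also give electrons to cluster assembly. Signals at 24 h were 6229 for HF+SFC+ALA, 6519 for HF and 6403 for Control, and at 4 h 6329, 5699 and 6129. Fdx1 varied least of the 8 genes, and its lowest pool was again HF at 4 h.

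Hscb encodes the co-chaperone that helps release a finished cluster from the scaffold. It was measured at 521, 583 and 513 at 24 h and at 523, 433 and 532 at 4 h in the HF+SFC+ALA, HF and Control pools. The HF pools were the highest and the lowest of the 6, 1.35-fold apart, and the other 4 pools lay between 513 and 532.

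The remaining members act after the scaffold. Glrx5 encodes a glutaredoxin that receives the cluster from the scaffold and passes it on. Its signal at 24 h was 5838 with HF+SFC+ALA, 6575 with HF and 6060 with Control, and at 4 h it was 6703, 6680 and 7001. All 3 pools at 24 h lay below all 3 pools at 4 h, which was so for Glrx5 alone among the 8 genes and for 8.36% of all genes.

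Isca1 and Isca2 encode partner proteins that build clusters of the larger type for enzymes such as lipoic acid synthase and mitochondrial aconitase. Isca1 signals were 10855, 12212 and 12492 at 24 h and 13304, 12157 and 13053 at 4 h in the HF+SFC+ALA, HF and Control pools. The lowest and highest Isca1 signals were thus both in HF+SFC+ALA pools. Isca2 signals were 3026, 2915 and 2527 at 24 h and 2591, 2544 and 2532 at 4 h. At 4 h the Isca2 values lay close together, and at 24 h the HF+SFC+ALA and HF values lay above the Control value.

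Nfu1 encodes a late-acting carrier that delivers clusters to lipoic acid synthase and respiratory enzymes. Its signals were 4445, 3951 and 4212 at 24 h and 4428, 4910 and 4709 at 4 h in the HF+SFC+ALA, HF and Control pools. Nfu1 peaked in the 4 h HF pool and was lowest in the 24 h HF pool, the opposite of Hscb and Fdx1. The HF+SFC+ALA pools differed least between the fasting times.

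Within a gene, neighbouring pools in the order of signals mostly lay closer together than the fitted spread, which does not come from replicates. With the moderated standard deviation of the fit (0.08 to 0.16 log2 units per pool), no neighbouring gap exceeded the spread of a difference between 2 pools for Nfs1, Iscu, Glrx5, Fdx1 and Nfu1. One gap each did so for Isca1, Isca2 and Hscb. Neighbours in a sorted order lie close together by construction, and the spread comes from the same pools. Few such gaps were therefore likely in advance, and the count was not made over all genes, so no conclusion is drawn from it.

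The iron supplement was compared with the unsupplemented high-fat diet over both fasting times. By limma, 0 of 8 assembly genes passed, beside 0.0% of all 11537 genes, and 0 of 8 had an unadjusted p under 0.05, beside 5.07% of all genes (585). The fitted difference of HF+SFC+ALA minus HF was largest for Iscu, at 0.14 ± 0.11 (standard error, adjusted p = 0.974), with a 95% interval from -0.12 to 0.40 that allows up to 1.32-fold. The others lay between -0.08 (Glrx5) and 0.06 (Hscb), with a median of 0.04 over the 8 genes, beside -0.00 (-0.0046) over all genes tested. The widest interval was that of Hscb, from -0.30 to 0.41, which allows up to 1.33-fold, and no other interval allows more. The sign for Iscu rested on single pools: the difference was -0.08 when the 4 h HF pool was left out and -0.03 when the 4 h HF+SFC+ALA pool was. Leaving out a 24 h pool gave 0.36 for HF and 0.31 for HF+SFC+ALA.

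The pairs at the 2 fasting times went different ways. At 4 h, 7 of 8 genes were higher in the HF+SFC+ALA pool than in the HF pool, beside 50.2% of all genes, with a median difference of 0.12. Iscu stood at 0.40, Hscb at 0.27, Fdx1 at 0.15, Isca1 at 0.13 and Nfs1 at 0.11, and Nfu1 was the exception at -0.15. At 24 h, 2 of 8 genes were higher with the supplement, beside 47.2% of all genes, and the median was -0.09. Some other gene lists swung the same way between these pools. At 4 h 13 of 14 mitochondrial iron-sulfur proteins, 8 of 8 mitochondrial content genes, 9 of 9 muscle fibre markers and 8 of 8 slow or oxidative fibre markers were higher in the HF+SFC+ALA pool, and at 24 h 6 of 14, 1 of 8, 0 of 9 and 0 of 8. Other lists of the pathway did so less or not at all. Of other mitochondrial assembly and export genes 6 of 9 were higher at 4 h and 5 of 9 at 24 h. Of cytosolic assembly genes it was 4 of 11 and 5 of 11, and of iron-sulfur proteins outside mitochondria 9 of 15 at both times. Among the 8 assembly genes, only Isca2 had a positive difference at both times, of 0.03 at 4 h and 0.05 at 24 h, where 50.7% of all genes kept 1 sign and 24.1% were higher in both pairs. The HF+SFC+ALA and HF pools overlapped for all 8 genes, and did not for 28.9% of all genes.

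HF+SFC+ALA was also set against Control, in pools that are partly those of the other diet comparisons. In the limma fit 0 of 8 genes passed, beside 0.0347% of all genes, and 0 of 8 had an unadjusted p under 0.05, beside 12.4%. Iscu was again the largest, at 0.19 ± 0.11 (adjusted p = 0.533; 0.27 at 4 h and 0.10 at 24 h), and it was 0.01 without the HF+SFC+ALA pool at 4 h and 0.36 without that at 24 h. Isca2 followed at 0.15 ± 0.09 (adjusted p = 0.551; 0.03 and 0.26). The HF+SFC+ALA and Control pools did not overlap for these 2 of the 8 genes, nor for 38.5% of all genes. Of the 8 genes 5 were higher with HF+SFC+ALA at 4 h (48.9% of all genes) and 4 at 24 h (48.4%). Iscu, Glrx5 and Isca2 kept 1 sign at both times, as did 61.7% of all genes. The other 6 differences lay between -0.09 and 0.00, and the median over the 8 genes was -0.00 (-0.003), beside -0.01 over all genes.

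For HF minus Control, the effect of the high-fat food alone, 0 of 8 genes passed in the limma fit, beside 0.884% of all genes, and 0 of 8 had an unadjusted p under 0.05, beside 14.7%. The differences ran from -0.08 ± 0.08 for Nfs1 (adjusted p = 0.677) to 0.11 ± 0.09 for Isca2 (adjusted p = 0.632), with a median of -0.03, beside -0.0002 over all genes. At 4 h 2 of 8 genes were higher in HF (48.2% of all genes), and at 24 h 5 of 8 (50.6% of all genes). Nfs1, Isca1 and Isca2 kept 1 sign at both times, as did 59.9% of all genes. Isca1 and Isca2 did not overlap between the diets, in opposite directions, which was so of 38.6% of all genes in either direction. The HF pool at 4 h gave -0.30 for Hscb and -0.13 for Iscu against Control, and the HF pool at 24 h gave 0.18 and 0.22.

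Fasting for 24 h was compared with 4 h within each diet. In the limma fit 0 of 8 genes passed, beside 2.39% of all genes, and 0 of 8 had an unadjusted p under 0.05, beside 17.7%. Nfu1 stood at -0.16 ± 0.08 (adjusted p = 0.337), Glrx5 at -0.14 ± 0.07 (adjusted p = 0.317), Isca1 at -0.12 ± 0.07 and Isca2 at 0.14 ± 0.08 (adjusted p = 0.387). At 24 h 2 of 8 genes were higher with HF+SFC+ALA (49.9% of all genes), 6 with HF (53.3%) and 3 with Control (50.6%). Glrx5 was lower at 24 h in all 3 diets, by -0.20 with HF+SFC+ALA, -0.02 with HF and -0.21 with Control. It was the only member with 1 sign in all diets, as against 39.4% of all genes, and its fasting times did not overlap, as for 19.0%. The median over the 8 genes was 0.07, beside 0.01 over all genes, and was -0.05 with either HF pool left out. In the same comparison Tfrc, the transferrin receptor through which cells take up iron, fell by 1.39 on the log2 scale (standard error 0.09, adjusted p = 0.000686 in limma), a call that ended, with those of all genes, when no filter on signal or no intensity trend was used. Tfrc read 3368, 3192 and 4112 at 24 h and 7826, 10053 and 10076 at 4 h in the HF+SFC+ALA, HF and Control pools, while Ireb2, an iron-sensing regulator of Tfrc mRNA, stood at 0.11 ± 0.09 (adjusted p = 0.569).

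**Figure D2:**
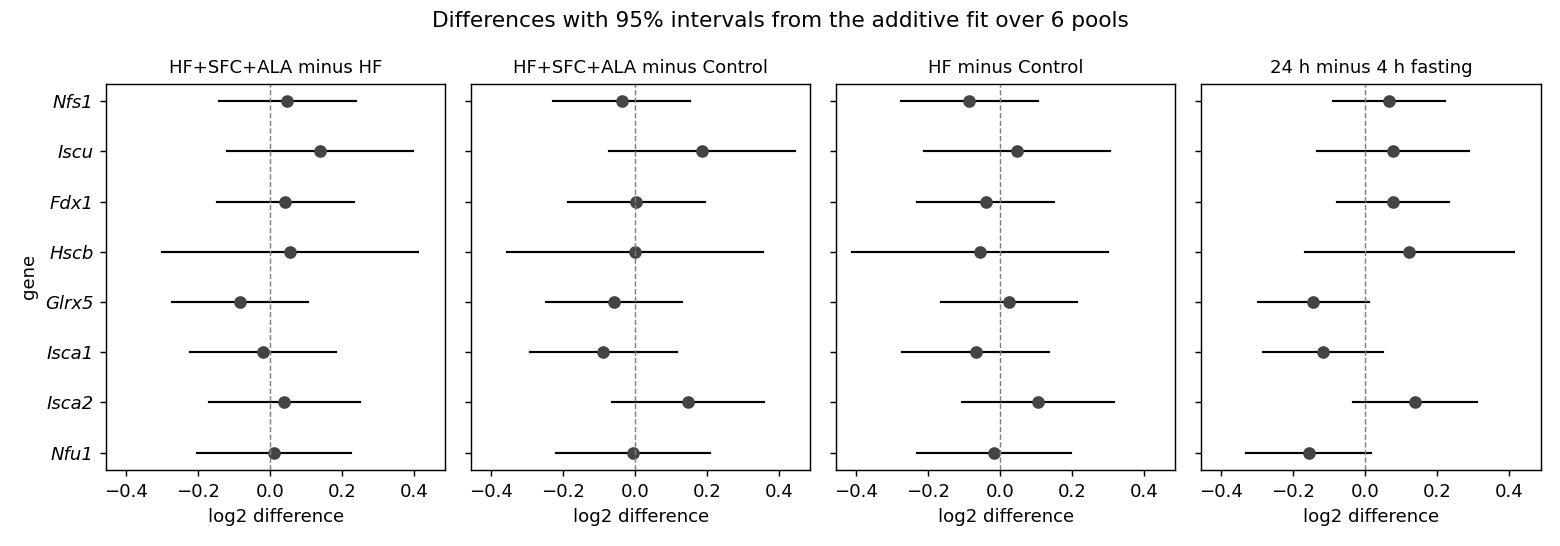
Log2 difference (horizontal axis) of each of the 8 genes in the 4 comparisons named above the panels, with points for the fitted difference and lines for its 95% interval from the additive fit over 6 pools. Every interval crosses 0; the points lie between -0.16 (Nfu1, fasting) and 0.19 (Iscu, HF+SFC+ALA minus Control).

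Whether the fasting response differed between diets was asked with 1 further term in the model for each pair of diets. This leaves 1 residual degree of freedom, and the fit was chosen after the values had been seen. Each fit sets the fasting response of the diet outside the pair to the mean of the pair's responses. The residual is that diet's distance from this mean. Standard errors and p-values of these fits therefore rest on that assumption. They do not measure a spread between pools of the compared diets. The response to fasting of Iscu was -0.15 with HF+SFC+ALA and 0.37 with HF, and the fitted difference between them was -0.52 ± 0.14 (unadjusted p = 0.00369, adjusted p = 0.501 in limma). Isca1 gave -0.30 ± 0.13 in the same fit (unadjusted p = 0.0459, adjusted p = 0.879). Neither passed over all genes. In this fit 4 of the 8 slow or oxidative fibre markers passed in limma, all lower: Tnnt1 at -1.39 ± 0.14 (adjusted p = 0.00979), Tnnc1 at -1.42 ± 0.16 (adjusted p = 0.0126), Tnni1 at -1.45 ± 0.17 (adjusted p = 0.0143) and Myh7 at -1.30 ± 0.17 (adjusted p = 0.0223). All 9 muscle fibre markers (median -0.31) and all 8 mitochondrial content genes (median -0.17) also had negative differences in this fit, with an unadjusted p under 0.05 for 9 of 9 and 3 of 8 and none past the threshold. For Tnnt1 the Control response (8717 at 4 h, 9092 at 24 h) lay close to the mean of the responses with HF and HF+SFC+ALA. Its standard error was 0.14 in this fit, beside 0.45 for HF minus Control and 0.39 for HF+SFC+ALA minus Control. No gene passed in the HF+SFC+ALA minus HF fit with quantile normalization, no filter, averaged probe sets or no intensity trend. With 0 of 8 genes past the threshold, beside 0.0607% of all genes, 2 of 8 had an unadjusted p under 0.05, beside 5.59%. For HF minus Control 0 of 8 passed, beside 0.052%, and the largest was Hscb at 0.48 ± 0.27 (adjusted p = 0.696). For HF+SFC+ALA minus Control 0 of 8 passed, beside 0.0%, and the differences ran from -0.23 to 0.23. None of the 8 had an unadjusted p under 0.05 in these 2 fits, beside 7.97% and 3.17% of all genes.

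Of the 8 genes, 4 (Nfs1, Iscu, Fdx1 and Hscb) had their lowest signal in the HF pool at 4 h, beside 18.5% of all genes. For Nfs1 this held for the brighter probe set, while its second probe set above the filter was lowest in the Control pool at 24 h. Other gene lists were read for the HF pool at 4 h. That pool was also lowest for 4 of 8 mitochondrial content genes, 10 of 14 mitochondrial iron-sulfur proteins and 6 of 9 muscle fibre markers. It was lowest for 3 of 9 other mitochondrial assembly and export genes, 1 of 11 cytosolic assembly genes and 4 of 15 iron-sulfur proteins outside mitochondria. Markers of slow or oxidative muscle fibres were unevenly spread too: 7 of 8 were lowest in the HF pool at 4 h and none lay at the floor in any pool. Their median, relative to each gene's mean, was -0.18, 0.29 and -0.07 at 24 h in the HF+SFC+ALA, HF and Control pools and 0.30, -0.33 and 0.07 at 4 h. Their summed signal ran from 102455 to 133187 in the HF+SFC+ALA pools, from 95276 to 133750 in the HF pools and from 111833 to 119119 in the Control pools. Myh7, the slow myosin heavy chain, had signals of 6716, 10109 and 7813 at 24 h and 9992, 6099 and 8784 at 4 h in the same order of diets. The mean over the 8 assembly genes moved less, at -0.01, 0.05 and -0.02 at 24 h and 0.05, -0.07 and 0.01 at 4 h. The ratio of 3' to 5' signal of the actin control probe sets also peaked in the 4 h HF pool, at 1.52, beside 1.08 to 1.22 in the other pools. The same ratio for GAPDH was 0.832 there, within the 0.814 to 0.863 of the other pools. The part of fibre type and of RNA quality in the values of these genes was not tested.

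**Figure D3:**
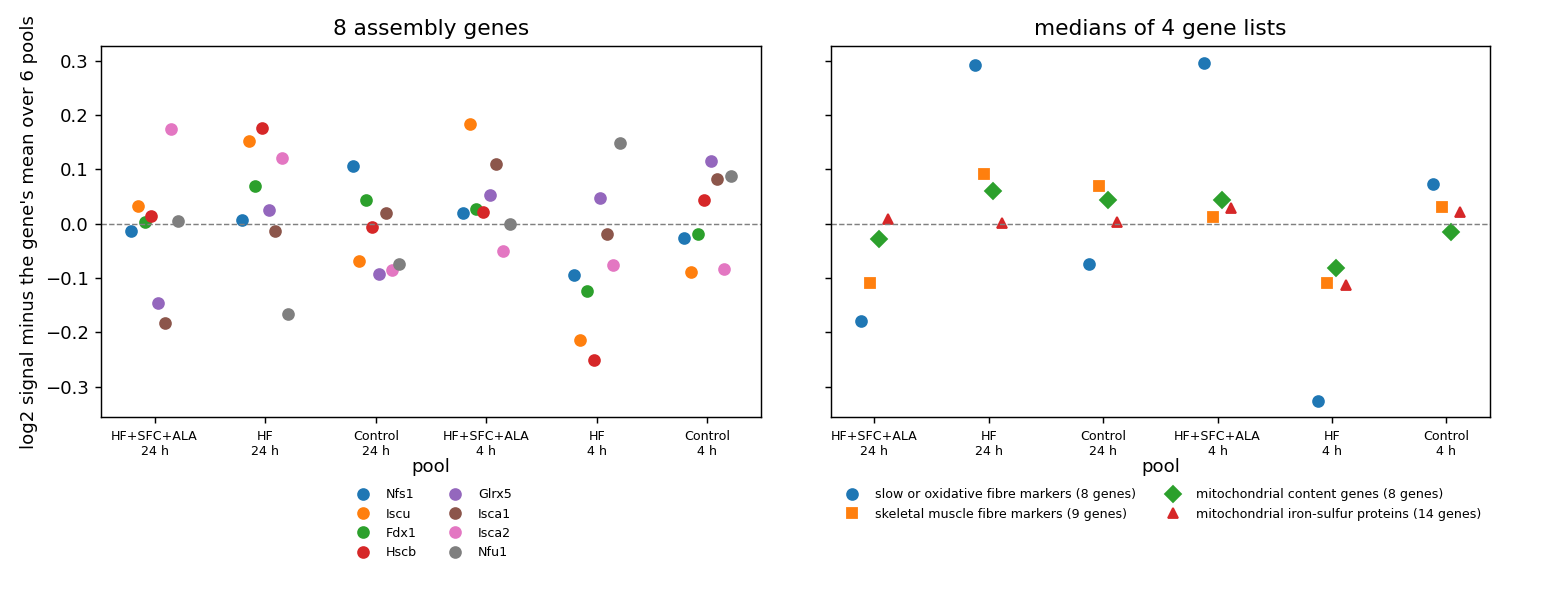
Left, log2 signal of the 8 assembly genes minus each gene's mean over the 6 pools, by pool; right, medians of the same quantity for 4 gene lists, on the same vertical axis. Slow or oxidative fibre markers stand at -0.33 in the HF pool at 4 h and at 0.29 and 0.30 in the HF pool at 24 h and the HF+SFC+ALA pool at 4 h; Iscu and Hscb are lowest, and Nfu1 highest, in the HF pool at 4 h.

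Taken as a whole, the 8 genes shared little of their pattern beyond this. Over the 28 pairs of members, the median Pearson r across the 6 pools was 0.08, beside 0.00 (0.001) over all pairs of genes tested, and 16 of the 28 were positive. Every pair among Nfs1, Iscu, Fdx1 and Hscb, the genes lowest in the 4 h HF pool, was positive (r = 0.39 to 0.90). Nfu1, highest in that pool, ran opposite to each of them (r = -0.69 to -0.91). A shared lowest pool by itself favours such signs over 6 pools, so these r values add no separate support for a subgroup. The closest pair was Hscb with Fdx1 (r = 0.90) and the most opposed Fdx1 with Nfu1 (r = -0.91), each over 6 pools that share 3 diets and 2 fasting times. The 5 genes with the pattern most like the mean of the 8 were Ccdc69, Nab2, Traf3ip1, Bend4 and Dph7 (Pearson r of 0.98 to 0.99 over 6 pools). Ccdc69, the closest, had signals of 356, 455 and 341 at 24 h and 456, 279 and 372 at 4 h in the HF+SFC+ALA, HF and Control pools.

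Other probe sets served as a check for 3 of the genes, and 12 probe sets matched in all. Nfs1 had a second probe set above the filter, of a design that can pool transcript variants. It read 789, 812 and 549 at 24 h and 794, 735 and 645 at 4 h in the HF+SFC+ALA, HF and Control pools. Both Control values were the lowest, so this probe set gave HF minus Control as 0.38 ± 0.13 (adjusted p = 0.24) and HF+SFC+ALA minus Control as 0.41 ± 0.13 (adjusted p = 0.291), with 95% intervals of 0.08 to 0.67 and 0.11 to 0.71. The unadjusted p in limma was 0.0186 and 0.012 for these comparisons. The brighter probe set, on which the counts of assembly genes rest, gave -0.08 and -0.04 in the same order. The third Nfs1 probe set was under the floor in all 6 pools.

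The second probe set of Isca1 read 3801, 3814 and 3563 at 24 h and 4222, 3846 and 4012 at 4 h, and like the first gave lower values at 24 h (-0.11 ± 0.07). For the diets it differed in sign, at 0.02 for HF minus Control and 0.06 for HF+SFC+ALA minus HF. The second Nfu1 probe set, of a type that can match more than 1 transcript, read 2552, 2780 and 2952 at 24 h and 2780, 2715 and 3078 at 4 h. It lay lower in HF+SFC+ALA than in Control at both times (-0.18 ± 0.09, adjusted p = 0.433), where the brighter set gave -0.01. Its fasting difference was -0.05, beside -0.16. For these 3 genes the order of the pools thus depended on the probe set, and 5 genes had a single probe set.

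**Figure D4:**
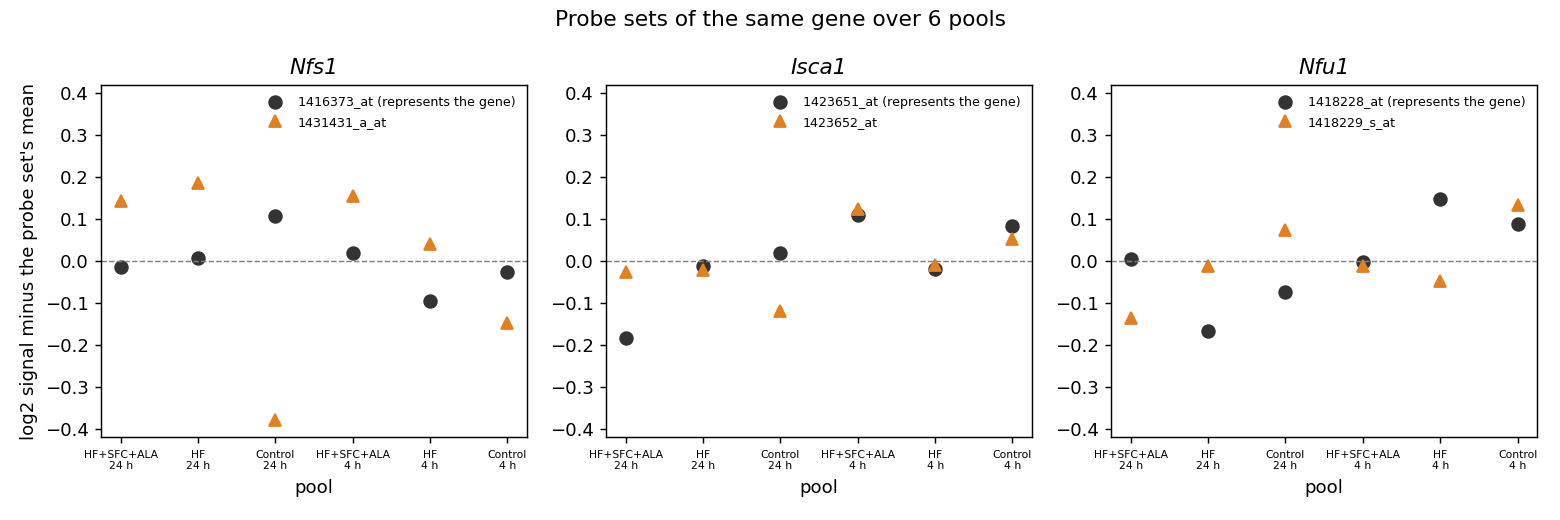
Log2 signal minus its mean over the 6 pools for the 2 probe sets above the filter of Nfs1, Isca1 and Nfu1, by pool; circles are the probe set that represents the gene and triangles the other. In the Control pool at 24 h the 2 Nfs1 probe sets lie on opposite sides of 0.

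The partners of these genes were read from lists of the pathway. Of 13 listed genes of mitochondrial assembly and export beyond the 8, 9 were tested and 0 passed in any of the 4 comparisons; the rest were not analysed here. After 24 h of fasting 8 of the 9 had a positive difference, with a median of 0.13, beside 51.7% of all genes and a median of 0.01. The diets differed, with 4 of 9 positive for HF+SFC+ALA (median -0.01), 9 of 9 for HF and 6 of 9 for Control. Iba57, which works with Isca1 and Isca2, had signals of 724, 714 and 923 at 24 h and 652, 542 and 610 at 4 h in the HF+SFC+ALA, HF and Control pools (0.38 ± 0.11, adjusted p = 0.125). The fasting times did not overlap for Iba57, as for 19.0% of all genes. Lyrm4, the small protein that stabilises Nfs1, read 977, 786 and 894 at 24 h and 712, 713 and 631 at 4 h (0.37 ± 0.11, adjusted p = 0.118), also without overlap. For HF+SFC+ALA minus HF the 9 genes had a median of 0.06, led by Bola1 at 0.22 ± 0.11 (adjusted p = 0.972), and for HF minus Control a median of -0.01, with the mitochondrial iron importers Slc25a37 at 0.27 ± 0.12 (adjusted p = 0.35) and Slc25a28 at -0.20 ± 0.11 (adjusted p = 0.439).

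Cytosolic assembly factors take clusters to enzymes outside mitochondria. Of 13 listed, 11 were tested and 0 passed in any comparison. Their medians were -0.04 for HF+SFC+ALA minus HF, -0.03 for HF+SFC+ALA minus Control, -0.02 for HF minus Control and -0.05 for fasting. Ciao2b, a targeting factor, stood at -0.23 ± 0.08 after 24 h (adjusted p = 0.16) and Ciao1, its partner, at 0.21 ± 0.09 (adjusted p = 0.238).

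Proteins that carry the clusters were read in the same way. Of 16 listed in mitochondria, 14 were tested and 0 passed in any comparison; 10 of the 14 were lowest in the HF pool at 4 h. For HF+SFC+ALA minus HF 11 of 14 had a positive difference, beside 48.8% of all genes, with a median of 0.05. The pairs differed, with 13 of 14 positive at 4 h (median 0.14) and 6 of 14 at 24 h (median -0.02). Ndufs8, a complex I subunit, had signals of 25458, 21698 and 20913 at 24 h and 25031, 20274 and 20441 at 4 h in the HF+SFC+ALA, HF and Control pools. Both supplemented pools stood above the other 4, with 0.27 ± 0.07 against HF (adjusted p = 0.652) and 0.29 ± 0.07 against Control (adjusted p = 0.222). Over all genes, pools did not overlap between HF+SFC+ALA and HF for 28.9%, between HF+SFC+ALA and Control for 38.5% and between HF and Control for 38.6%. Lias, the lipoic acid synthase that receives clusters from Nfu1 and the Isca proteins, read 3675, 3694 and 4838 at 24 h and 3534, 3523 and 3992 at 4 h. Both Control pools were above the 4 pools on high-fat food, at -0.28 ± 0.09 for HF minus Control (adjusted p = 0.196) and -0.29 ± 0.09 for HF+SFC+ALA minus Control (adjusted p = 0.286). Cdk5rap1, which modifies mitochondrial transfer RNA, stood at -0.54 ± 0.12 for HF minus Control (adjusted p = 0.0962) and 0.32 ± 0.12 for HF+SFC+ALA minus HF (adjusted p = 0.895). Etfdh, which passes electrons from fatty acid oxidation to the respiratory chain, stood at 0.26 ± 0.07 for fasting (adjusted p = 0.1005), 0.26 ± 0.09 for HF minus Control (adjusted p = 0.222) and 0.36 ± 0.09 for HF+SFC+ALA minus Control (adjusted p = 0.205).

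Of 17 listed iron-sulfur proteins outside mitochondria, 15 were tested and 0 passed in any comparison. Their medians were 0.05 for HF+SFC+ALA minus HF, -0.06 for HF+SFC+ALA minus Control, -0.12 for HF minus Control and 0.04 for fasting. Aco1, the cytosolic aconitase that binds iron-responsive mRNA once it has lost its cluster, read 1609, 1780 and 1503 at 24 h and 1887, 1811 and 1497 at 4 h in the HF+SFC+ALA, HF and Control pools. The Control pools were lowest at both times, with HF minus Control at 0.26 ± 0.10 (adjusted p = 0.284) and HF+SFC+ALA minus Control at 0.22 ± 0.10 (adjusted p = 0.414). The largest difference of this list for HF+SFC+ALA minus HF was that of Mutyh, a DNA repair glycosylase of low signal (52 to 113), at 0.86 ± 0.34 (adjusted p = 0.922).

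Markers were read for the tissue and for other cells it could hold. All 9 skeletal muscle fibre markers were tested and none lay at the floor, and 0 passed in any of the 4 comparisons. They moved between single pools: 6 of 9 were lowest in the HF pool at 4 h, 0 of 9 were higher in HF than in Control at 4 h, and 9 of 9 were higher in the HF pool at 24 h than in that at 4 h. The 8 genes taken for mitochondrial content, among them Cs (citrate synthase) and Tfam, had medians of 0.01, -0.01, -0.02 and 0.03 for HF+SFC+ALA minus HF, HF+SFC+ALA minus Control, HF minus Control and fasting, and 0 passed. Adipocyte markers, 5 of 7 tested, had a positive difference in 5 of 5 for HF minus Control (median 2.17), and 3 of 5 passed. No gene passed there with no filter on signal, no intensity trend or diet alone in the model, and 1 gene with averaged probe sets. Of the same markers 0 of 5 passed for HF+SFC+ALA minus HF (median -1.68). Their summed signal was 28691 to 29086 in the HF+SFC+ALA pools, 32800 to 37023 in the HF pools and 22938 to 26934 in the Control pools. Most of this sum was Fabp4, at 21626 to 31773 over all pools. Adipoq read 796, 4280 and 577 at 24 h and 1941, 4637 and 901 at 4 h in the HF+SFC+ALA, HF and Control pools. Of the 5 markers, 2 were at the floor in the Control pool at 24 h. Macrophage markers had medians of 0.62 for HF minus Control and -0.14 for HF+SFC+ALA minus HF, with 0 of 6 passing in either, and 1 of 6, Cd163, fell by 0.68 with fasting (adjusted p = 0.0495 in limma), a call that ended under the settings named for Tfrc. Of the erythroid markers 1 of 5 was tested. The part of these cells in the values of the assembly genes was not tested.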

How the data were processed

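RNA of gastrocnemius muscle, pooled within each of 6 groups, was hybridised to 3' expression arrays. The authors deposited linear intensity values. Per the submitters' processing notes, MAS5 made them. The array means with 2% trimmed at each end were equal (500.004). Of 45101 probe sets 64 controls were dropped. One gene symbol was listed for 34945 of the rest, which alone were named, several for 932 and none for 9160; gene identifiers updated or checked 34741 symbols. Signals below the 30th percentile (26.4) were raised to it, log2 was taken, the brightest probe set stood for a gene, and genes with a mean over 5.90 were kept.

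Diet and fasting time entered limma 3.58.1 (R 4.3.3) as additive factors with an intensity trend, giving 7.24 prior degrees of freedom, with Benjamini-Hochberg adjustment. The fits were tested on simulated data. Members and gene lists were chosen with earlier results of these data known. Named genes are the 8 members, up to 4 of each list and comparison with the largest differences plus any that passed, the 5 of most like pattern, and Tfrc, Ireb2 and Alas1 (-0.29 for fasting, adjusted p = 0.0902 in limma); not all are printed. Alternatives were quantile normalization, other filters, no floor, a pseudocount, averaged or other probe sets, no trend, single-factor models and each pool left out. Summaries used Python 3.11.15 with pandas 2.3.3 and numpy 2.4.6, and plots matplotlib 3.10.9.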

Additional observations from a re-analysis of the deposited data

How the results depend on the processing

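Under every alternative run, 0 of the 8 assembly genes passed in those of the 4 comparisons and 3 fasting-response fits to which it was applied. The fasting-response fits were not run with single-factor models or with a pool left out. Counts over all genes moved more. With no filter on signal, and without the intensity trend, 0 genes passed for fasting, HF minus Control, HF+SFC+ALA minus Control and the fasting-response fits of HF minus Control and HF+SFC+ALA minus HF. With averaged probe sets 12 passed for fasting, 1 for HF minus Control and 0 for the other 3 of these. Fasting time alone in the model gave 60, and diet alone gave 0 for HF minus Control and for HF+SFC+ALA minus Control. Quantile normalization gave 0 for HF+SFC+ALA minus Control, and 3 and 0 in those fasting-response fits. The stricter filter gave 6 for HF+SFC+ALA minus HF and 12 for the HF minus Control response, and a pseudocount gave 13 for that response and 3 for HF+SFC+ALA minus HF. The cause was not tested.

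Some uncalled differences changed sign with the probe set. With the other probe set Nfs1 stood at -0.0318 for fasting, 0.3764 for HF minus Control, 0.4116 for HF+SFC+ALA minus Control, 0.3755 for the HF minus Control response and 0.22 for the HF+SFC+ALA minus Control response. Averaged Nfs1 probe sets gave 0.0972, 0.1248, 0.1144 and 0.0178 for the last 4. That average includes the third Nfs1 probe set, held at the floor in every pool, which draws the differences toward zero. The other Isca1 probe set gave 0.0186 for HF minus Control, 0.0648 for HF+SFC+ALA minus HF (0.0224 averaged), 0.0833 for HF+SFC+ALA minus Control and 0.0199 for its response. The other Nfu1 probe set gave -0.0446 for HF+SFC+ALA minus HF (-0.017 averaged, -0.0012 with quantile normalization), and 0.094, -0.1575 and -0.0634 for the responses of HF minus Control, HF+SFC+ALA minus HF and HF+SFC+ALA minus Control.

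Leaving out 1 pool at a time gave 55 to 452 genes for fasting, 42 to 573 for HF minus Control, 0 to 109 for HF+SFC+ALA minus HF and 0 to 419 for HF+SFC+ALA minus Control. Counts were highest without the Control pool at 4 h, except for HF+SFC+ALA minus HF, where they were 108 without it and 109 without the Control pool at 24 h. The median over the 8 genes ran from -0.0473 to 0.107 for fasting, -0.1183 to 0.0814 for HF minus Control and -0.0607 to 0.1155 for HF+SFC+ALA minus HF. For 24 h minus 4 h the ranges that crossed 0 were Iscu -0.0656 to 0.1935, Hscb -0.0291 to 0.2106. For HF minus Control the ranges that crossed 0 were Hscb -0.2844 to 0.1729, Isca1 -0.1601 to 0.0248, Fdx1 -0.1264 to 0.0474, Glrx5 -0.0655 to 0.1155, Isca2 -0.0004 to 0.213, Iscu -0.1689 to 0.2634, Nfu1 -0.134 to 0.1019. For HF+SFC+ALA minus HF the ranges that crossed 0 were Iscu -0.0771 to 0.3552, Isca2 -0.0234 to 0.1039, Hscb -0.1734 to 0.2839, Fdx1 -0.0442 to 0.1296, Nfs1 -0.0276 to 0.1228, Glrx5 -0.1738 to 0.0072, Isca1 -0.1524 to 0.1126, Nfu1 -0.111 to 0.1319. For HF+SFC+ALA minus Control the ranges that crossed 0 were Hscb -0.1314 to 0.1304, Fdx1 -0.0725 to 0.0788, Nfu1 -0.127 to 0.1159, Nfs1 -0.1124 to 0.038, Isca1 -0.2201 to 0.045. Fits without a pool keep 1 residual degree of freedom. No paired analysis was possible because each group had 1 pool, so that its number only names it.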
